A study of Mus musculus with 24 samples.

Results

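A set of 10 genes of the epithelial-mesenchymal transition are described in mouse lung tumours driven by mutant epidermal growth factor receptor (EGFR) and in normal lung. All 10 genes were measured, by 22 of the 45037 probe sets on the array that are not controls. A probe set was included when the platform annotation assigned it to a member gene alone, and 0 probe sets were shared between a member and another gene. Zeb2 had 5 probe sets, Zeb1 had 4, Vim had 3, and Snai2, Cdh2 and Epcam had 2 each. Snai1, Twist1, Twist2 and Cdh1 had 1 each.

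In the transition an epithelial cell loosens its junctions with its neighbours and takes on the shape and motility of a mesenchymal cell. Transcription factors of the ZEB, SNAIL and TWIST families drive it, in large part by repressing junction genes such as Cdh1, which encodes E-cadherin. Vimentin (Vim) and N-cadherin (Cdh2) mark the mesenchymal state, and E-cadherin and the adhesion molecule Epcam mark the epithelial state. In the lung the mesenchymal members are also active outside the epithelium: vimentin is a filament of fibroblasts, endothelial cells and leukocytes, ZEB2 is made in leukocytes and other stromal cells, and N-cadherin joins heart muscle cells.

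Total RNA of 24 mouse lung samples was hybridised to Affymetrix MOE 430 2.0 arrays, with 1 array per sample. Visible nodules were cut out of the lungs of bitransgenic mice after 3 to 6 months on food with doxycycline, and they formed 3 groups named for the change in EGFR: L858R (n = 4), L858R+T790M (n = 5) and T790M (n = 5). L858R activates the kinase, and T790M, the gatekeeper change, weakens the hold of EGFR inhibitors. The 10 normal lungs came from littermates with 1 transgene or none, also on doxycycline. Those titled control carry the strain label FVB (n = 5, FVB normals below), and those titled Normal carry the label FVB mixed (n = 5, mixed-strain normals below). Among the tumours, the strain label is FVB mixed for L858R and FVB for the rest. The labels write the tumour genotypes as C/L858R, C/L+T and C/T790M. The promoter of the transgenes, the animals' age and sex, and which normal lung carried a transgene were not found in the labels. They do not tie an array to a mouse either, and the p-values below therefore describe spread between arrays, some of which may be technical.

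Values are log2 probe set summaries, and differences are log2 values ± SE from limma, with p-values adjusted by Benjamini-Hochberg over all 45037 probe sets. A probe set was called at an adjusted p under 0.05. Array medians lay between 7.21 and 7.34. Surfactant and other alveolar type 2 markers were bright on every array, with a list mean of 12.5 to 12.7 in the normal lungs and 13.0 to 13.4 in the tumours. Gapdh controls at the transcript ends track RNA integrity. Their difference (3′ minus 5′) was -0.20 to -0.08 in FVB normals, -0.31 to -0.22 in mixed-strain normals and -0.26 to -0.03 in tumours. The Gapdh ranges of the normal sets did not overlap. Actin controls were higher at the 3′ end, by 0.37 to 0.60 in normal lungs and 0.40 to 0.65 in tumours.

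The promoters of Epcam and Snai1 are shown because they carry the letters that ZEB and SNAIL proteins are known to bind, the E-box CACCTG, which reads CAGGTG on the other strand. The sequences are the 250 bases before the gene start in RefSeq (mouse build GRCm38.p6), 5′ to 3′ along the gene, with the motif in capitals.
Epcam, chr17:87635729-87635978, plus strand: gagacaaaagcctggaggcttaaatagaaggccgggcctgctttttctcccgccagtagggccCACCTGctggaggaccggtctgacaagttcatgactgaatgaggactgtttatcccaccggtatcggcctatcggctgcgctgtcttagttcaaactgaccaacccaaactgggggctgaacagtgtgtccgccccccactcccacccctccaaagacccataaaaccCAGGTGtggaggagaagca
Snai1, chr2:167537945-167538194, plus strand: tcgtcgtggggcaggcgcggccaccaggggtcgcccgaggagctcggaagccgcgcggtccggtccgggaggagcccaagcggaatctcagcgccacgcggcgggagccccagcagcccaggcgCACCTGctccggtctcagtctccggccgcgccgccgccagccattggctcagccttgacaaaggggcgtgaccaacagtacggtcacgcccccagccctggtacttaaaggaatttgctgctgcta
The Epcam window held the motif at 187 and 19 bases before the start, and the Snai1 window held it once, at 126 bases. The windows of Vim, Twist1, Twist2 and Zeb2 (4 starts) held 0. Windows were examined for these 6 of the 10 genes. Those of Zeb1, Snai2, Cdh1 and Cdh2 were not examined, so the motif in their promoters was not tested. Over all 32851 windows of the table, 17.2% held the motif on either strand. These matches describe letters and say nothing of binding in these samples.

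The first question was how the members differed between tumours and the normal lungs of the same strain label. In all 3 genotypes the ZEB and SNAIL factors and vimentin were lower in tumours, Epcam and Cdh1 were higher, and Twist1 was not called. By the brightest probe set of each gene, 7 of 10 genes fell in L858R tumours and 2 rose. In turn, 6 of the 10 fell and 2 rose in L858R+T790M tumours, and the counts were again 6 and 2 in T790M tumours. Over all genes 17.8%, 15.6% and 17.4% fell in the same order, and 22.8%, 19.4% and 21.3% rose. The median difference of the 10 genes was -1.01 in L858R, -0.40 in L858R+T790M and -0.39 in T790M tumours, against 0.05, 0.03 and 0.00 over all 18193 genes. L858R+T790M and T790M tumours share their normal lungs, so their differences are not independent of each other.

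**Figure D1:**
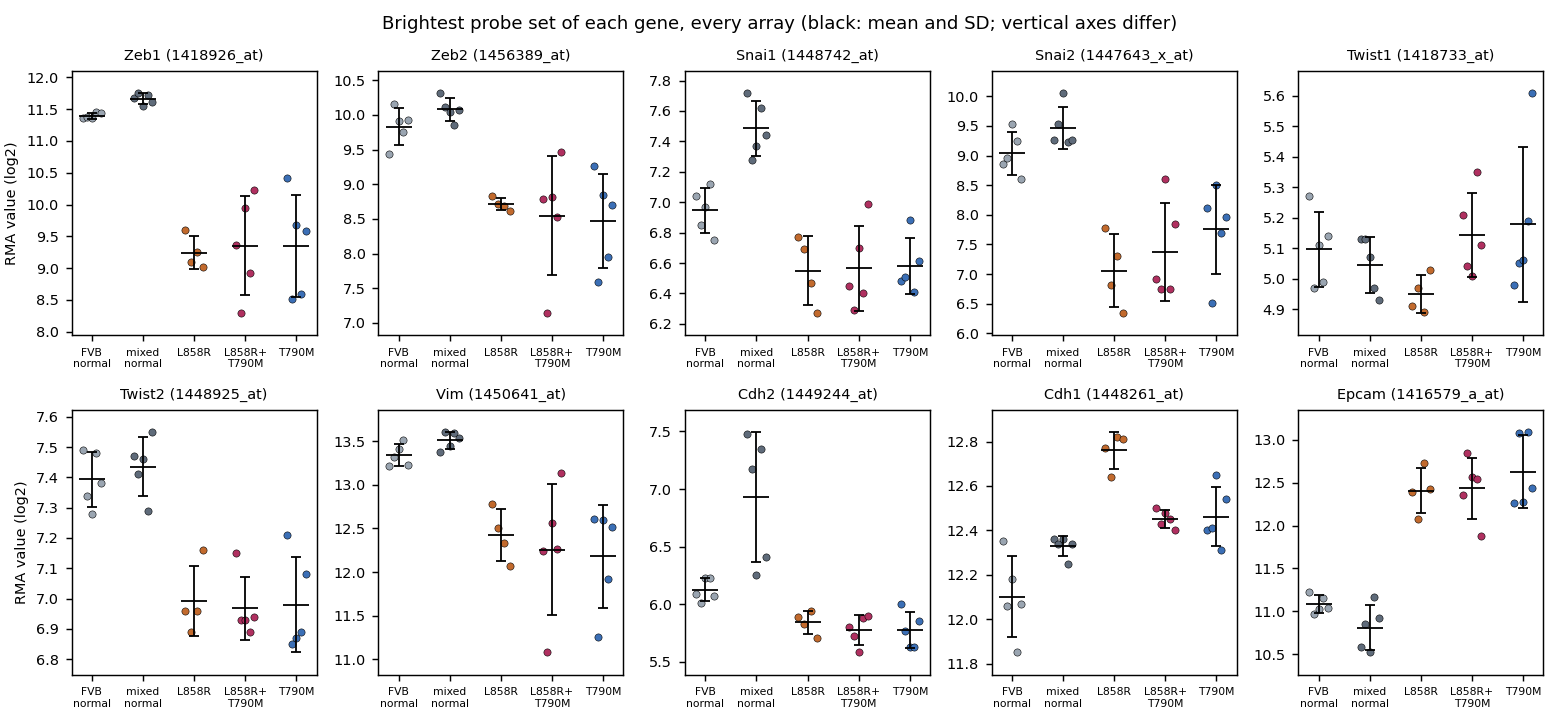
Log2 value of the brightest probe set of each of the 10 genes on every array, by group; black marks are the mean and SD, and each panel has its own vertical axis. The Zeb1 values of all 14 tumours lie at 10.42 or below and those of all 10 normal lungs at 11.36 or above, while Epcam runs the other way, with tumours at 11.88 or above and normal lungs at 11.23 or below.

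By probe set, 18 of 22 fell and 3 rose in L858R tumours (95.5% called, against 37.3% of all probe sets, 17% lower and 20.3% higher). In L858R+T790M tumours 16 fell and 2 rose (81.8%, against 30.8% of all probe sets, 14.2% lower and 16.5% higher). In T790M tumours 17 fell and 2 rose (86.4%, against 34.8% of all probe sets, 16.3% lower and 18.5% higher). The arrays of tumours and normals did not overlap for 19, 14 and 17 of the 22 probe sets, where 31.4%, 25% and 25.9% of all probe sets had separate ranges.

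**Figure D2:**
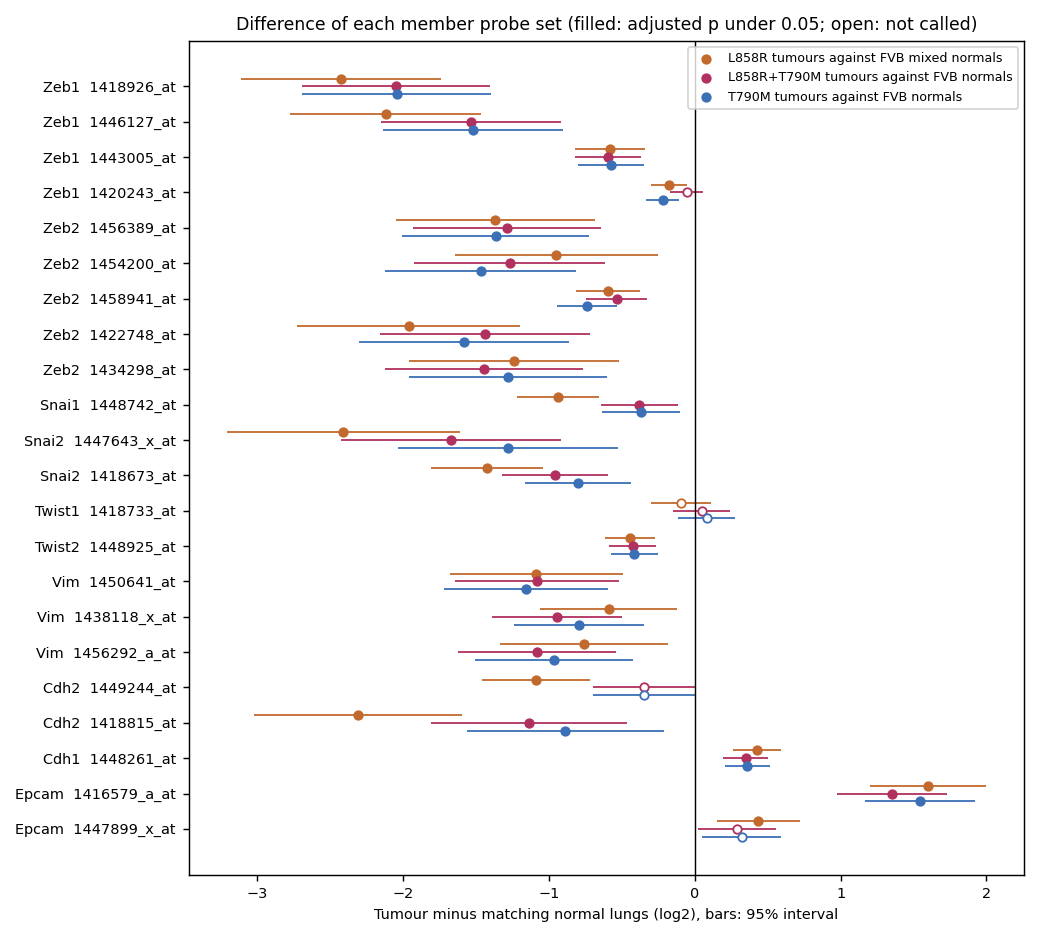
Difference of each of the 22 probe sets between tumours and their matching normal lungs (log2, horizontal axis) with its 95% interval, for the 3 genotypes; filled points were called at an adjusted p under 0.05 and open points were not. Every probe set of Zeb2, Snai2 and Vim lies below 0 in all 3 genotypes, and those of Cdh1 and Epcam lie above 0.

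Among the transcription factors the deepest fall common to all genotypes was that of Zeb1, a zinc finger repressor of epithelial genes. Its brightest probe set (1418926_at) read 11.36, 11.37, 11.36, 11.46 and 11.44 in FVB normals and 11.68, 11.76, 11.55, 11.73 and 11.61 in mixed-strain normals. It read 9.60, 9.09, 9.26 and 9.01 in L858R tumours. Normal lungs were tightly grouped, and no tumour of any genotype reached them. The values were 9.36, 8.29, 9.95, 8.93 and 10.23 in L858R+T790M tumours and 10.42, 8.51, 9.67, 8.59 and 9.58 in T790M tumours. These tumours spread more widely, with an SD of 0.78 and 0.80 against 0.26 in L858R tumours and 0.05 in FVB normals. Zeb1 was 5.37-fold lower in L858R tumours (-2.43 ± 0.33, adjusted p = 5.66e-06), 4.13-fold lower in L858R+T790M tumours (-2.05 ± 0.31, adjusted p = 2.88e-05) and 4.12-fold lower in T790M tumours (-2.04 ± 0.31, adjusted p = 3.02e-05). Probe sets 1446127_at and 1443005_at fell as well, by 0.57 to 2.12 over the genotypes. The dimmest, 1420243_at, differed by -0.17, -0.06 and -0.22 in the order L858R, L858R+T790M and T790M, and was called in the first and last. In L858R tumours it was no longer called in a fit to only these groups, or when replicate 1 or 3 of the tumours or replicate 2 or 3 of the normals was left out (-0.16 to -0.13). With each array centred on its median the difference there was -0.10 (adjusted p = 0.165).

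Zeb2, the other ZEB factor, fell on all 5 probe sets in every genotype. Its brightest (1456389_at) read 9.43, 10.15, 9.91, 9.75 and 9.92 in FVB normals and 10.32, 10.11, 10.04, 9.86 and 10.07 in mixed-strain normals. L858R tumours were uniform at 8.83, 8.72, 8.69 and 8.61. L858R+T790M tumours read 8.79, 7.14, 8.81, 8.53 and 9.46, and T790M tumours 9.26, 7.59, 8.84, 7.95 and 8.70. L858R+T790M replicate 5 (9.46) lay just above the lowest FVB normal (9.43), and the other tumours lay below all normals. The falls were 2.58-fold (-1.37 ± 0.33, adjusted p = 0.00219), 2.44-fold (-1.29 ± 0.31, adjusted p = 0.00272) and 2.57-fold (-1.36 ± 0.31, adjusted p = 0.00151) in the order L858R, L858R+T790M and T790M. The other 4 probe sets ran from -1.96 to -0.54. One of them, 1454200_at, was called in L858R tumours with all arrays (-0.95 ± 0.34), but not when tumour replicate 3 or 4 or normal replicate 4 was left out (-0.96 to -0.86).

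Snai2, which encodes SLUG, had its largest fall in L858R tumours, although the fall was not called different from that of the other genotypes. Its brightest probe set (1447643_x_at) read 7.78, 6.81, 7.30 and 6.34 there, against 9.26, 9.54, 10.06, 9.22 and 9.26 in mixed-strain normals. FVB normals read 8.86, 8.96, 9.54, 9.25 and 8.60, L858R+T790M tumours 6.91, 6.75, 8.61, 6.74 and 7.85, and T790M tumours 8.11, 6.52, 8.50, 7.70 and 7.97. L858R and T790M tumours lay below their normals, and L858R+T790M replicate 3 (8.61) overlapped the lowest FVB normal (8.60). The falls were 5.32-fold (-2.41 ± 0.39, adjusted p = 3.72e-05) in L858R, 3.18-fold (-1.67 ± 0.36, adjusted p = 0.00112) in L858R+T790M and 2.43-fold (-1.28 ± 0.36, adjusted p = 0.00826) in T790M tumours. The other probe set, 1418673_at, fell by 1.42, 0.96 and 0.80 in the same order, with separate ranges in each genotype.

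Snai1, which encodes SNAIL, had its larger fall in L858R tumours, whose mixed-strain normals read higher than FVB normals; the falls were not called different between genotypes. Mixed-strain normals read 7.72, 7.28, 7.37, 7.62 and 7.44 and L858R tumours 6.77, 6.69, 6.47 and 6.27, a 1.91-fold fall (-0.94 ± 0.14, adjusted p = 1.15e-05). FVB normals read 7.04, 6.85, 6.97, 7.12 and 6.75, L858R+T790M tumours 6.45, 6.29, 6.70, 6.40 and 6.99, and T790M tumours 6.48, 6.51, 6.88, 6.41 and 6.61. The tumours of these last groups overlapped the FVB normals, and the falls were -0.38 ± 0.13 (adjusted p = 0.0262) and -0.37 ± 0.13 (adjusted p = 0.0282). These calls were fragile: that of L858R+T790M tumours was lost without FVB normal replicate 1 or 4 or L858R+T790M replicate 1, 2 or 4 (-0.36 to -0.31). That of T790M tumours was lost without FVB normal replicate 1, 3 or 4 or T790M replicate 1, 2 or 4 (-0.36 to -0.32). With quantile normalization applied again the adjusted p was 0.0502 and 0.0759, and with each array centred on its median 0.0532 in T790M tumours.

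The TWIST factors, basic helix-loop-helix proteins of mesoderm, were not called alike. Twist2 read 7.28 to 7.55 in all normal lungs and 6.85 to 7.21 in all tumours, with no overlap, and was lower by 0.44 ± 0.08, 0.43 ± 0.08 and 0.41 ± 0.08 in the order L858R, L858R+T790M and T790M (adjusted p = 0.000204, 0.000219 and 0.000274). These are falls of 1.36-, 1.34- and 1.33-fold. Twist1 read 4.93 to 5.27 in normal lungs and 4.89 to 5.61 in tumours. It differed by -0.10 ± 0.10, 0.05 ± 0.09 and 0.08 ± 0.09 (adjusted p = 0.478, 0.753 and 0.538), and the highest value, 5.61, was that of T790M replicate 5. The Twist1 probe set was among the dimmest on the array, which limits what it can show.

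Vimentin, the intermediate filament of mesenchymal cells, stayed bright in tumours but was lower than in normal lung. Its brightest probe set (1450641_at) read 13.22, 13.32, 13.41, 13.51 and 13.23 in FVB normals and 13.38, 13.60, 13.44, 13.59 and 13.53 in mixed-strain normals. L858R tumours read 12.78, 12.51, 12.33 and 12.07. L858R+T790M tumours read 12.24, 11.08, 12.56, 12.27 and 13.13, and T790M tumours 12.61, 11.26, 12.60, 11.92 and 12.52. No tumour reached a normal lung of its own strain label, though L858R+T790M replicate 5 (13.13) came close, and L858R+T790M replicate 2 (11.08) and T790M replicate 2 (11.26) were lowest. Vim was 2.12-fold lower in L858R tumours (-1.09 ± 0.29, adjusted p = 0.00469), 2.12-fold in L858R+T790M tumours (-1.08 ± 0.27, adjusted p = 0.00371) and 2.23-fold in T790M tumours (-1.16 ± 0.27, adjusted p = 0.00194). The probe sets 1438118_x_at and 1456292_a_at fell by 0.59 and 0.76 in L858R tumours. The first of these calls was lost without any 1 of the 4 L858R tumours or of mixed-strain normal replicates 1, 2, 3 and 5 (-0.63 to -0.55) and with arrays centred on their medians (-0.52, adjusted p = 0.0661). The second depended on tumour replicates 2, 3 and 4 and normal replicates 2, 3 and 5, since leaving out any 1 of them ended the call (-0.78 to -0.68). In the other genotypes these probe sets fell by 0.79 to 1.08.

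N-cadherin showed a difference between the normal sets as well as between tumours and normals. Probe set 1418815_at read 8.60, 7.62, 6.43, 7.93 and 6.58 in mixed-strain normals and 5.93, 5.96, 6.11, 6.32 and 6.27 in FVB normals. L858R tumours read 5.39, 5.24, 5.11 and 4.75, L858R+T790M tumours 5.17, 4.70, 4.75, 5.25 and 5.05, and T790M tumours 6.41, 4.78, 4.90, 4.93 and 5.14. Mixed-strain replicates 1, 2 and 4 stood far above the other normal lungs, and T790M replicate 1 lay above every FVB normal while the other T790M tumours lay below. Cdh2 was 4.96-fold lower in L858R tumours by this probe set (-2.31 ± 0.34, adjusted p = 1.67e-05), 2.19-fold in L858R+T790M tumours (-1.13 ± 0.32, adjusted p = 0.00983) and 1.85-fold in T790M tumours (-0.89 ± 0.32, adjusted p = 0.0377). The last call was lost without any 1 of FVB normal replicates 2 to 5 or T790M replicates 2 to 5 (-0.93 to -0.77), and with quantile normalization applied again (-0.84, adjusted p = 0.0539). By 1449244_at, the brighter probe set, Cdh2 fell in L858R tumours (-1.09 ± 0.18, adjusted p = 5.02e-05) and was not called in the others, at -0.35 ± 0.17 each (adjusted p = 0.124 and 0.114). Those values were called in fits to only the groups compared (adjusted p = 0.00414 and 0.00818). With all 10 normal lungs as 1 group, which brings in the higher mixed-strain lungs, the difference was -0.75 in each genotype (adjusted p = 0.00509 and 0.00469).

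Mixed-strain normals exceeded FVB normals on both Cdh2 probe sets, by 1.31 ± 0.32 (1418815_at, adjusted p = 0.0325) and 0.81 ± 0.17 (1449244_at, adjusted p = 0.0149), and in Snai1 by 0.54 ± 0.13 (adjusted p = 0.0271). These were the 3 called of 22 probe sets (13.6%, against 2.48% of all probe sets), and all 3 were higher in the mixed-strain lungs (1.25% of all probe sets were). Leaving out FVB replicate 2 or 5, or mixed-strain replicate 1 or 4, ended the Snai1 call (0.48 to 0.52). The call of 1418815_at was lost without any 1 of the 10 arrays except mixed-strain replicates 3 and 5 (1.02 to 1.36). In a fit to the normal lungs alone 6 probe sets were called, with Zeb1 1418926_at (0.27) and Zeb2 1422748_at (0.38) and 1434298_at (0.33) added. The share of all probe sets called in that fit was not computed, so this count cannot be set against it.

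Heart muscle, which lines pulmonary veins in the mouse, was followed with a list of 10 cardiac genes such as Myh6 and Actc1. The mean of the list was 11.12, 11.14 and 11.03 in mixed-strain replicates 1, 2 and 4, and 9.38 and 9.80 in replicates 3 and 5, the same split as that of Cdh2. It was 10.58 in T790M replicate 1, against 6.01 to 8.25 in the other T790M tumours, 6.52 to 7.43 in L858R+T790M tumours, 6.06 to 8.53 in L858R tumours and 9.69 to 10.48 in FVB normals. Across the normal sets the order was not kept. FVB normal replicate 5 had a cardiac mean of 10.48 with Cdh2 1418815_at at 6.27, and mixed-strain replicate 3 had 9.38 with 6.43. Of the 10 genes 9 fell in L858R tumours, 9 in L858R+T790M and 8 in T790M tumours. The shares of all genes that fell were 17.8%, 15.6% and 17.4%. The part of heart muscle in the Cdh2 values was not tested.

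**Figure D3:**
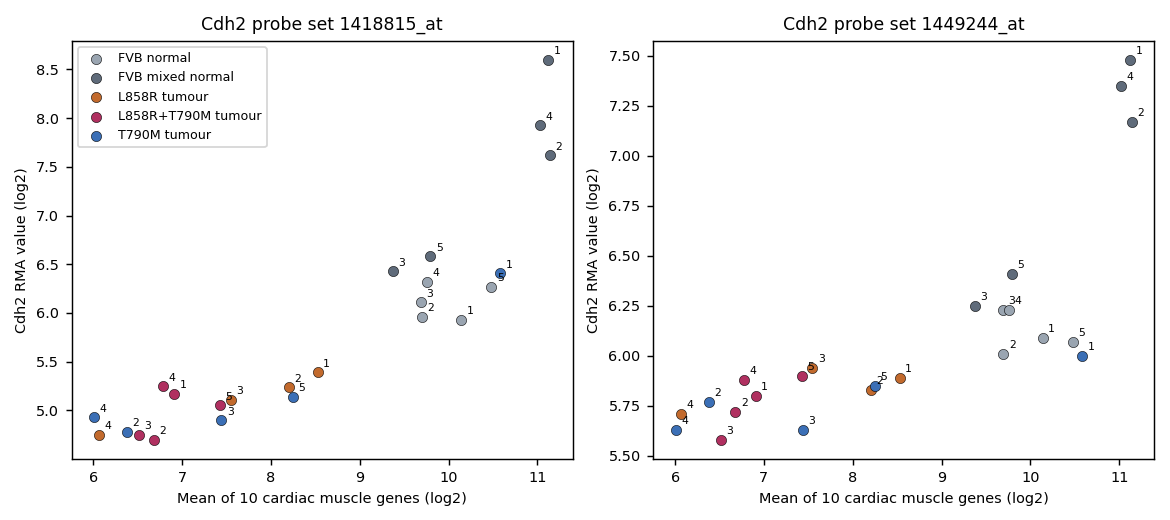
Log2 value of both Cdh2 probe sets (vertical) against the mean log2 level of 10 cardiac muscle genes (horizontal) on all 24 arrays, coloured by group and numbered by replicate. Mixed-strain normals 1, 2 and 4, with cardiac means of 11.03 to 11.14, hold the 3 highest Cdh2 values on both probe sets, and T790M replicate 1 lies with the normal lungs.

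The epithelial members rose. Epcam, an adhesion molecule of epithelial surfaces, read 11.23, 10.97, 11.03, 11.15 and 11.04 in FVB normals and 10.58, 10.85, 10.52, 11.17 and 10.92 in mixed-strain normals by its brighter probe set (1416579_a_at). L858R tumours read 12.39, 12.08, 12.73 and 12.43. L858R+T790M tumours read 12.36, 12.84, 12.56, 12.54 and 11.88, and T790M tumours 12.26, 13.08, 12.27, 13.09 and 12.44. Every tumour was above every normal lung. Epcam was 3.03-fold higher in L858R tumours (1.60 ± 0.19, adjusted p = 1.31e-06), 2.55-fold in L858R+T790M tumours (1.35 ± 0.18, adjusted p = 7.26e-06) and 2.92-fold in T790M tumours (1.54 ± 0.18, adjusted p = 1.87e-06). The dimmer probe set, 1447899_x_at, differed by 0.43 ± 0.14 (adjusted p = 0.0158), 0.29 ± 0.13 (adjusted p = 0.0967) and 0.32 ± 0.13 (adjusted p = 0.0584) in the same order. Its call in L858R tumours was lost without L858R replicate 4 (0.33) and with quantile normalization again (0.39, adjusted p = 0.0571). In L858R+T790M tumours it was called without replicate 5 (0.36) or with array weights (0.30, adjusted p = 0.0159). In T790M tumours it was called without replicate 1 (0.41) or FVB normal replicate 1 (0.38), with arrays centred (0.37), or with the dimmest probe sets left out (0.32, adjusted p = 0.0478).

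E-cadherin, the main cadherin of epithelial junctions, rose by less than Epcam did on its brighter probe set, and by about as much as the values of the dimmer one. Cdh1 read 12.35, 12.06, 12.18, 11.85 and 12.07 in FVB normals, 12.50, 12.43, 12.48, 12.45 and 12.40 in L858R+T790M tumours and 12.40, 12.41, 12.65, 12.31 and 12.54 in T790M tumours. Mixed-strain normals read 12.36, 12.34, 12.36, 12.25 and 12.34 and L858R tumours 12.77, 12.64, 12.82 and 12.81. Only T790M replicate 4 (12.31) lay below a normal of its own strain label. The rises were 1.35-fold in L858R (0.43 ± 0.08, adjusted p = 0.000181), 1.27-fold in L858R+T790M (0.35 ± 0.07, adjusted p = 0.000961) and 1.28-fold in T790M tumours (0.36 ± 0.07, adjusted p = 0.000677).

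The tumour genotypes were then compared with each other. Between L858R+T790M and T790M tumours 0 of the 22 probe sets were called by limma (1.15% of all probe sets were), and 1 had an unadjusted p under 0.05, Zeb1 1420243_at (0.16 ± 0.06, adjusted p = 0.147). The 95% intervals of the difference were -0.65 to 0.64 for Zeb1 1418926_at, -0.49 to 0.64 for Vim 1450641_at, -0.57 to 0.19 for Epcam 1416579_a_at and -0.17 to 0.15 for Cdh1. True differences within these bounds are not excluded by these arrays. The intervals are not adjusted for the number of probe sets, and they do not give the smallest difference that would be called.

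L858R tumours were set against the other genotypes after subtracting the matching normals. Against L858R+T790M tumours 0 of 22 probe sets were called by limma (0.171% of all) and 3 had an unadjusted p under 0.05, that of Snai1 and both of Cdh2. Against T790M tumours 0 were called (0.411% of all) and 5 had such a p, that of Snai1 and both each of Snai2 and Cdh2. Probe sets of the same gene are not separate observations. The share of all probe sets with such a p was not computed, so these counts cannot be set against it. The deeper fall of Cdh2 1418815_at in L858R tumours differed from that in T790M tumours by -1.42 ± 0.47 (adjusted p = 0.166), and that of Snai1 by -0.57 ± 0.19 (adjusted p = 0.160). Without the subtraction Cdh1 was higher in L858R than in L858R+T790M tumours (0.31 ± 0.08, adjusted p = 0.0313) and than in T790M tumours (0.30 ± 0.08, adjusted p = 0.0271). With it, the differences were 0.08 ± 0.11 and 0.07 ± 0.11 (adjusted p = 0.857 and 0.803), and mixed-strain normals read 0.23 ± 0.07 above FVB normals (adjusted p = 0.103).

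Among the 14 tumours, those with the most Epcam had the least Vim and Zeb2 by the brightest probe set of each gene. T790M replicates 2 and 4 and L858R+T790M replicate 2 held the 3 highest Epcam values (13.08, 13.09 and 12.84) and the 3 lowest Vim values (11.26, 11.92 and 11.08), Zeb2 values (7.59, 7.95 and 7.14) and Zeb1 values (8.51, 8.59 and 8.29). Not every other probe set kept this order. On the dimmer Epcam probe set, 1447899_x_at, L858R replicate 4 was highest (10.35), against 10.08, 10.15 and 10.04 in those tumours. On Zeb1 1446127_at, L858R replicate 1 (6.62) lay below T790M replicates 2 (6.70) and 4 (7.07). In all, 9 relations of Epcam with the other members were computed over the tumours, by the brightest probe sets only and with 100000 permutations each. For Zeb2, Pearson's r was -0.82 (permutation p = 0.00028, adjusted over the 9 relations 0.00252) and Spearman's rho -0.82 (permutation p = 0.00052, adjusted 0.00468). For Vim, r was -0.80 (permutation p = 0.00061, adjusted 0.00274) and rho -0.72 (permutation p = 0.00532, adjusted 0.0239). Zeb1 gave r = -0.73 (permutation p = 0.00325, adjusted 0.00975) and rho = -0.69 (permutation p = 0.00848, adjusted 0.0254). Snai1 gave r = -0.61 (permutation p = 0.0211, adjusted 0.0475), but its rho of -0.52 missed the threshold (permutation p = 0.0611, adjusted 0.137).

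For Cdh1, r was -0.23 (permutation p = 0.416, adjusted 0.468) and rho -0.15 (permutation p = 0.601, adjusted 0.676), so E-cadherin did not follow Epcam detectably from tumour to tumour. The remaining 4 genes had r between -0.37 and 0.03 and adjusted p of 0.341 or above. As deviations from the mean of each genotype, r was -0.83 for Zeb2, -0.80 for Vim, -0.78 for Zeb1 and -0.65 for Snai1; single genotypes held 4 or 5 tumours, too few for values of their own. Without T790M replicates 2 and 4, the tumours farthest from the median of Epcam, r was -0.74 for Zeb2 (permutation p = 0.00588), -0.74 for Vim (permutation p = 0.00599), -0.60 for Zeb1 (permutation p = 0.039) and -0.68 for Snai1 (permutation p = 0.0137). Without L858R+T790M replicate 2 as well, r over the other 11 tumours was -0.69 for Zeb2, -0.65 for Vim, -0.60 for Snai1 and -0.41 for Zeb1.

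**Figure D4:**
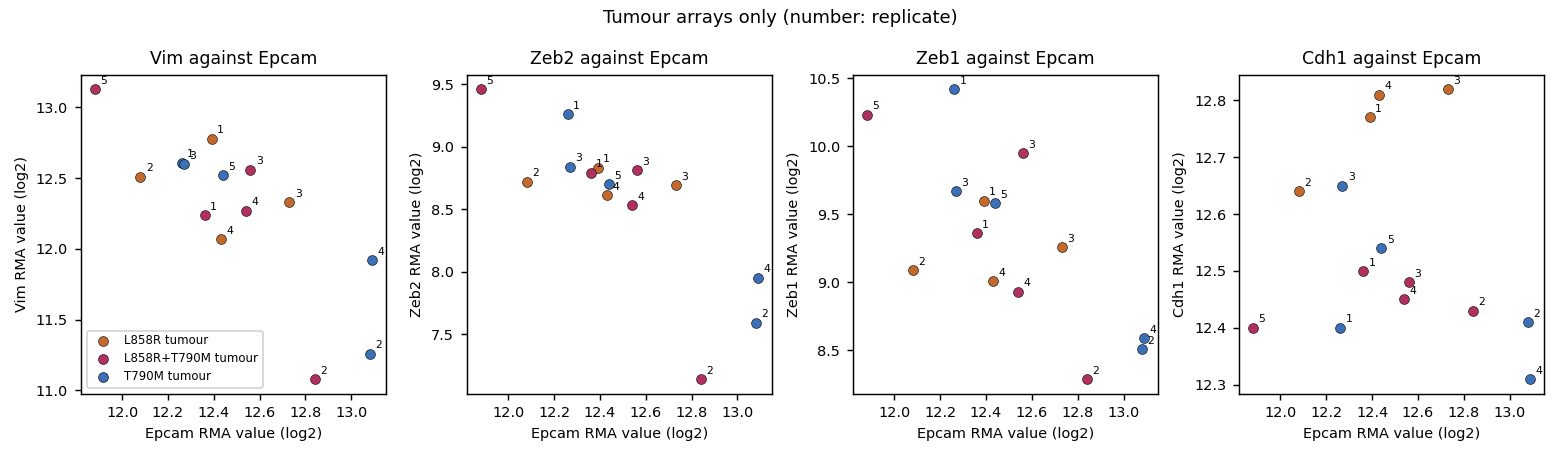
Log2 values of Vim, Zeb2, Zeb1 and Cdh1 (vertical) against that of Epcam (horizontal) in the 14 tumours, by the brightest probe set of each gene, coloured by genotype and numbered by replicate. Vim, Zeb2 and Zeb1 run downward with Epcam, with T790M replicates 2 and 4 and L858R+T790M replicate 2 at the lower right, and the points of Cdh1 are more scattered (r = -0.23).

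Most markers of stromal cells were called lower in tumours as well. The mean of 15 endothelial markers was 11.45 to 12.04 in FVB normals, 11.80 to 11.90 in mixed-strain normals, 9.20 to 10.22 in L858R, 8.74 to 10.58 in L858R+T790M and 8.49 to 10.87 in T790M tumours, and 14, 15 and 14 of the 15 fell in the genotypes in that order. Fibroblast markers (14 genes) averaged 10.43 to 11.29 in normal lungs and 7.84 to 9.87 in tumours, and 12, 10 and 10 of them fell. Smooth muscle and pericyte markers (12 genes) averaged 9.40 to 9.93 in normal lungs and 7.84 to 8.99 in tumours, and 12, 10 and 9 fell. Over all genes the shares that fell were 17.8%, 15.6% and 17.4%. The 3 tumours with the least Vim and Zeb2 had endothelial means of 9.14, 8.49 and 8.74 and fibroblast means of 7.85, 7.84 and 7.95, in the order T790M replicates 2 and 4 and L858R+T790M replicate 2. T790M replicate 1, with the highest Zeb1 of its group, had the highest endothelial mean of all tumours. Other tumours differed: L858R replicate 2 had an endothelial mean of 9.20 with Zeb2 at 8.72 and Vim at 12.51. L858R replicate 4 had a fibroblast mean of 8.01 with Zeb2 at 8.61. No relation of these lists with the members was computed over the tumours. The part of these cell types in the falls of Vim, Zeb1, Zeb2 and Snai2 was not tested, and in whole nodules fewer cells of a type and less RNA per cell cannot be told apart.

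Leukocyte markers did not run one way. T and NK cell genes fell in 9, 10 and 10 of 11 measured and B cell genes in 5, 4 and 3 of 7, in the order L858R, L858R+T790M and T790M. Of 13 macrophage genes 7 rose and 1, Csf1r, fell in L858R tumours, 2 rose in L858R+T790M tumours, and 1 rose and 1, again Csf1r, fell in T790M tumours. In the same order 22.8%, 19.4% and 21.3% of all genes rose and 17.8%, 15.6% and 17.4% fell. The macrophage rises in L858R+T790M and T790M tumours were thus not above the shares of all genes. The macrophage mean was 9.82 to 10.30 in normal lungs, 10.84 to 11.40 in L858R, 9.76 to 11.59 in L858R+T790M and 10.03 to 10.75 in T790M tumours. L858R+T790M replicate 2 had the lowest macrophage mean of all tumours (9.76) beside the lowest Vim and Zeb2, and replicate 5 the highest (11.59) beside the highest Vim (13.13) and Zeb2 (9.46). By contrast, L858R replicate 2 had a macrophage mean of 11.40 with Vim at 12.51 and Zeb2 at 8.72. T790M replicate 1 had a macrophage mean of 10.48 with Vim at 12.61 and Zeb2 at 9.26. The part of macrophages in the Vim and Zeb2 values was not tested. Marco, a scavenger receptor of alveolar macrophages, rose by 3.42 ± 0.55 in L858R and 3.65 ± 0.51 in L858R+T790M tumours.

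Lists of epithelial cell types moved in different directions. Type 2 cell genes rose in 10, 10 and 9 of 11, in the order L858R, L858R+T790M and T790M. Type 1 cell genes fell in 7, 5 and 8 of 10 and rose in 1, 2 and 0. These rises were near or below the 22.8%, 19.4% and 21.3% of all genes that rose. The shares that fell were 17.8%, 15.6% and 17.4%. Club cell genes fell in 5, 6 and 4 of 8, and all 10 ciliated cell genes fell in each genotype. Their part in the rises of Epcam and Cdh1 was not tested.

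Lists of related genes were counted in the same way, by the brightest probe set of each gene. The lists share genes, so their counts are not separate observations. Pdgfra, Dcn and Lum are both fibroblast and mesenchymal markers, and Tagln is a smooth muscle and mesenchymal marker. Cdh5 is in the endothelial and cadherin lists, and Cdh11 is in the mesenchymal and cadherin lists. Of 33 measured epithelial adhesion and identity genes 22 rose and 2 fell in L858R tumours (median 0.72, against 0.05 over all genes), 25 and 2 in L858R+T790M tumours (median 0.90, against 0.03) and 23 and 2 in T790M tumours (median 0.90, against 0.00). Spint1, a protease inhibitor of epithelial surfaces, rose by 1.82 ± 0.15 in L858R tumours. Esrp1, a splicing factor of epithelial cells, rose by 1.74 ± 0.11 in L858R+T790M and 1.69 ± 0.11 in T790M tumours. The genes that fell in all 3 genotypes were the junction scaffold Tjp1 (-0.92, -0.79 and -0.81) and the plakoglobin gene Jup (-0.65, -0.33 and -0.45).

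Of 25 measured mesenchymal marker genes 14 fell in L858R tumours and 0 rose (median -0.78), 10 fell and 1 rose in L858R+T790M tumours (median -0.30), and 11 fell and 0 rose in T790M tumours (median -0.40). The mean of the list was 10.34 in L858R+T790M replicate 5, above every FVB normal (9.96 to 10.26), whereas replicates 1 to 4 read 8.97 to 9.79. Without replicate 5, 12 of the 25 fell and 1 rose in that genotype (median -0.44). Cdh11, a cadherin of mesenchymal cells, fell in each genotype (-2.92 ± 0.45 in L858R, -1.55 ± 0.43 in L858R+T790M and -1.41 ± 0.43 in T790M tumours). The matrix glycoprotein gene Tnc was the one that rose (1.52 ± 0.41 in L858R+T790M tumours). Of 12 cadherin and catenin genes other than the members 5, 5 and 6 fell and 0 rose (medians -0.19, -0.25 and -0.21). They included the endothelial cadherin Cdh5 (-2.66, -2.36 and -2.34) and Cdh13 (-1.24, -0.60 and -0.70). Beside the counts of both lists, 17.8%, 15.6% and 17.4% of all genes fell and 22.8%, 19.4% and 21.3% rose.

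Most called genes among other transcription factors linked to the transition fell. Of 21 measured, 11 fell and 2 rose in L858R, 9 and 3 in L858R+T790M and 10 and 3 in T790M tumours (medians -0.33, -0.13 and -0.17). Of all genes 17.8%, 15.6% and 17.4% fell and 22.8%, 19.4% and 21.3% rose. The T-box gene Tbx3 fell most in each (-3.58 ± 0.52, -2.95 ± 0.49 and -3.02 ± 0.49). Id2, whose product blocks basic helix-loop-helix factors, rose in each (1.27 ± 0.25, 1.18 ± 0.23 and 1.22 ± 0.23), whereas Id3 of the same family fell by 1.55 ± 0.30 in L858R tumours. Sox9 rose in L858R+T790M (1.67 ± 0.60) and T790M tumours (1.63 ± 0.60).

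TGF-beta is a main inducer of the transition, and more of its pathway genes fell than rose. Of 23 genes 12 fell and 5 rose in L858R, 11 and 6 in L858R+T790M and 13 and 5 in T790M tumours (medians -0.30, -0.34 and -0.43). The counts that rose are near the shares of all genes just given. The receptor gene Acvrl1 (-3.41, -2.76 and -2.73) and the inhibitory SMAD gene Smad6 (-2.99, -2.94 and -3.17) fell most. Acvrl1 is known from endothelium, whose markers fell as given above. The part of endothelium in the fall of Acvrl1 was not tested. Tgif1, a corepressor of SMAD proteins (1.38 ± 0.16, 1.28 ± 0.15 and 1.44 ± 0.15), Pmepa1, a TGF-beta target that dampens the signal (1.35 ± 0.14, 1.23 ± 0.13 and 1.08 ± 0.13), and the receptor gene Tgfbr1 (1.08 ± 0.12, 0.91 ± 0.11 and 0.65 ± 0.11) rose in every genotype.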

How the data were processed

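The deposited table gives 1 log2 value per probe set and array, deposited after RMA summarisation by the authors (per the submitters' processing notes, with no version). Its 45101 rows include 64 control probe sets, left out of the tests. The values were used as deposited, with 2 decimals. Arrays hold no counts, so precision rests on 4 or 5 arrays a group. The platform annotation gave 1 gene to 34945 probe sets, with symbols updated by Entrez identifier for 34741.

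The 5 group means were fitted to every probe set with limma 3.58.1 in R 4.3.3 (eBayes with a trend), and p-values are two-sided. Genes of a list are represented by their probe set with the highest mean. Permutations were run in Python 3.11.15. On simulated data for L858R+T790M tumours against FVB normals, with 45037 probe sets, 86 of 100 added differences of 1 and 97 of 100 of 2 were called, beside 6 unchanged probe sets. The simulation gave each probe set the same spread in every group and drew its values independently. Real spreads can differ between groups: the SD of Zeb1 1418926_at was 0.78 in L858R+T790M tumours and 0.05 in FVB normals. The simulated rates may therefore not hold for these data. The members and lists were chosen with earlier results of these data known. Genes named from a list are the 3 with the largest called differences in a comparison, or called against most of their list. No label says that replicate numbers pair the arrays, and the main fit did not pair them. Of 46 same-numbered pairs 12 deviated together with r over 0.1, in a range of -0.30 to 0.42. Same-numbered L858R+T790M and T790M tumours gave r of 0.015, 0.42, 0.213, 0.159 and 0.204 for replicates 1 to 5. Differently numbered pairs were not examined, so a link between arrays of the same number was not tested. Alternatives are given in the closing section; 3 settings for the relations with Epcam, and the list counts without L858R+T790M replicate 5, were added after the data were seen.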

Additional observations from a re-analysis of the deposited data

Results flagged for a closer look

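In 110 sets of values (22 probe sets in 5 groups), 4 held an array far from the others of its group, by the gap to the nearest array over the group's range; chance marks about 1 in 20 sets. Cdh2 1418815_at in T790M replicate 1 was 6.41, with the nearest T790M tumour at 5.14. Twist2 in L858R+T790M replicate 1 was 7.15, with the nearest at 6.94. Cdh1 in mixed-strain normal replicate 4 was 12.25, with the nearest at 12.34. Zeb1 1420243_at in FVB normal replicate 3 was 4.39, with the nearest at 4.50.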

How the results depend on the processing

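The falls of Zeb1 1418926_at, Zeb2 1456389_at, Snai2, Twist2 and Vim 1450641_at and the rises of Cdh1 and Epcam 1416579_a_at against normal lung kept their direction and call in all 3 genotypes under every alternative run. These were median centring, quantile normalization again, dropping the dimmest probe sets, array weights, no trend, a fit to only the groups compared, all 10 normal lungs as 1 group, the replicate block, 1 probe set per gene, the median over probe sets, and each array left out. Without 1 array, 17 to 20 member probe sets were called in L858R tumours, 17 to 19 in L858R+T790M and 17 to 19 in T790M tumours. Twist1 changed sign, uncalled, without 1 array, with values of -0.0035 to 0.0915 in L858R+T790M and -0.026 to 0.13 in T790M tumours. With the replicate number as a block, the calls numbered 21, 18 and 19, as without it, and no call of a comparison changed in number. Compared directly, with strain labels that differ and no adjustment for them, L858R tumours had 1 called probe set against L858R+T790M and 1 against T790M tumours, Cdh1 in each. Between the normal sets 3 were called, but 1 without the dimmest probe sets (both of Cdh2 were dropped), 6 with array weights, 6 in a fit to the normal lungs alone, and 1 to 3 without 1 array. The shares of all probe sets called under these alternatives, the direct comparisons included, were not computed, so the counts cannot be set against them. In the median over its probe sets Cdh2 was called lower in L858R+T790M (-0.74, adjusted p = 0.0194) and T790M tumours (-0.62, adjusted p = 0.0469). Low signal limits Twist1, Cdh2 and Zeb1 1420243_at, which lie among the dimmest probe sets.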
